A study of Drosophila melanogaster
Gallus gallus with 8 samples.

Results

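DRIP-seq peaks on the small microchromosomes of the chicken genome, those numbered 16 to 33, were examined in wild type and *primpol* cells. The members were chosen by position alone, as every region of either broad peak list whose chromosome is a number from 16 to 33. There were 2104 such peaks among 41445 in the wild type list (5.08%, 95% Wilson interval 4.87 to 5.29) and 1673 among 48468 in the *primpol* list (3.45%, 3.29 to 3.62). Together they were 3777 of 89913 peaks. No peak of either list lay on chromosomes 29 or 31, and chromosome 30 held 1 wild type peak and no *primpol* peak. The remaining 15 chromosomes held peaks of both genotypes.

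An R-loop is a structure in which RNA pairs with a DNA strand and displaces the other. DRIP recovers such DNA:RNA hybrids with the S9.6 antibody, and the recovered DNA is sequenced and compared with untreated input DNA. PrimPol is a primase that can prime DNA synthesis anew beyond an obstacle to replication. The chicken karyotype combines a few large chromosomes with many very small ones. These microchromosomes are known to be rich in genes and in G and C bases, to replicate early as a class and to be difficult to assemble.

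All 8 libraries came from DT40, a B-cell line of chicken, mixed at 3.75 DT40 cells to 1 *Drosophila* S2 cell as an internal reference, and differed in genotype, wild type or PrimPol deficient, and in treatment. Each genotype was represented by 2 DRIP libraries, 1 input library without antibody and 1 DRIP library treated with RNase H, which removes hybrids. The RNase H libraries enter neither list and were not analysed here, nor were *Drosophila* reads. A peak list measures no cell marker, so the identity of the cells could not be checked in it.

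Each genotype has a single list of peaks. Values therefore carry no replicate error, no test between genotypes was possible, and intervals cover counting error only. The wild type list rested on 46425192 DRIP and 23107894 input tags after removal of duplicates, and the *primpol* list on 44735404 and 30302032. The *primpol* input was thus 1.31 times as deep. Height, the mean fragment pileup over a peak, is on the scale of each genotype's own input, and its value cannot be compared between lists without a stated scale. The lists were called at a q-value of 0.1, and many peaks lay near that limit: the median −log10 q-value of the microchromosome peaks was 1.57 in both lists, close to the lowest wild type value of 1.00. A value of 5 was reached by 15 of 2104 wild type and 14 of 1673 *primpol* microchromosome peaks. On chromosomes 1 to 15 it was reached by 78 of 37190 and 113 of 43111. A value of 2 or more was reached by 24.6 and 23.4% of microchromosome peaks, against 16.2 and 20.7% on chromosomes 1 to 15.

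The number of peaks was lower in *primpol* than in wild type on the microchromosomes. The ratio of 1673 to 2104 was 0.795 (95% counting interval 0.746 to 0.848). Chromosomes 1 to 15 ran in the opposite direction, with 43111 *primpol* and 37190 wild type peaks and a ratio of 1.16 (1.14 to 1.18). These intervals do not overlap. All 15 microchromosomes with peaks in both lists had fewer in *primpol*, whereas 14 of the chromosomes 1 to 15 had more. The counting interval lay below 1 on 5 microchromosomes, namely 20, 23, 24, 25 and 28.

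**Figure D1:**
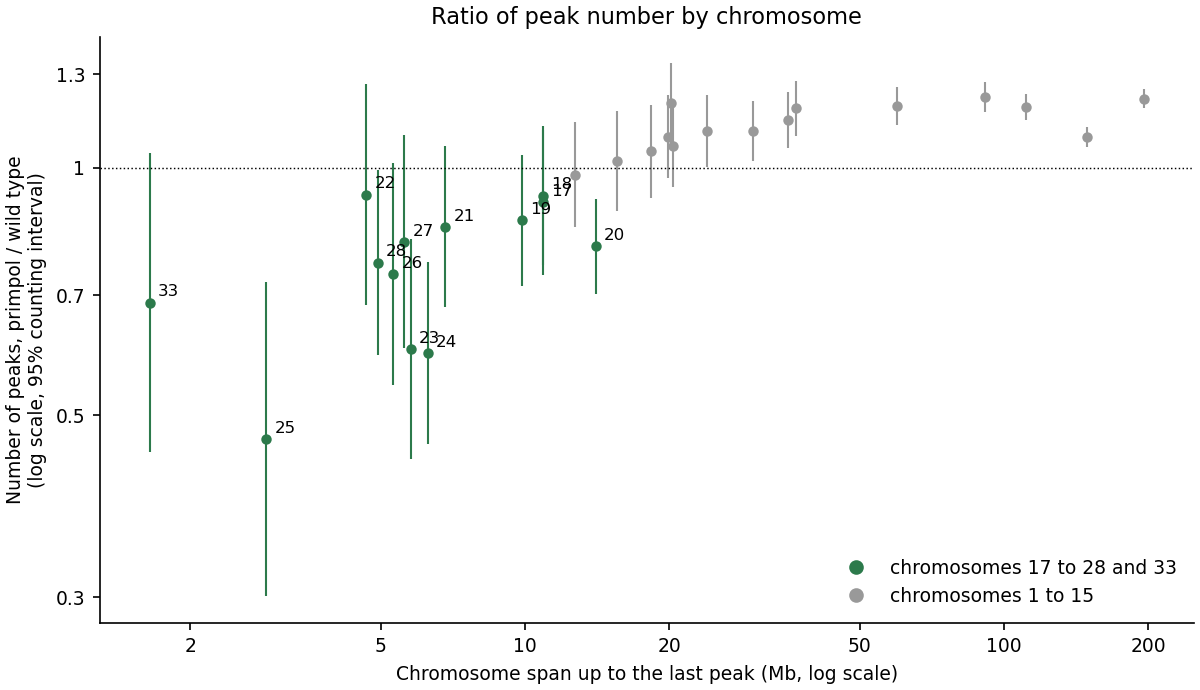
Ratio of the number of peaks in *primpol* to that in wild type (log scale, bars show 95% counting intervals) against the span of each chromosome up to its last peak (Mb, log scale), for the 13 microchromosomes with at least 25 peaks in each list (green, numbered) and chromosomes 1 to 15 (grey). The microchromosomes lie between 0.468 and 0.928, and chromosomes 1 to 15 between 0.980 and 1.22.

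The deficit was unequal in size. Chromosome 25 had the lowest ratio among those with at least 50 wild type peaks, with 62 wild type and 29 *primpol* peaks (0.468, 0.301 to 0.727). Chromosome 24 followed with 158 and 94 peaks (0.595, 0.461 to 0.768) and chromosome 23 with 108 and 65 (0.602, 0.442 to 0.819). Chromosome 20, the longest and most populated, fell from 480 to 385 peaks (0.802, 0.701 to 0.917), and chromosome 28 from 133 to 102 (0.767, 0.593 to 0.993). The ratios on chromosomes 22 (83 and 77 peaks, 0.928), 18 (213 and 197, 0.925) and 17 (196 and 178, 0.908) were closest to 1, and their intervals included it. Over the 28 chromosomes with at least 25 peaks in each list, the Spearman correlation of span with this ratio was 0.893. The correlation is a description only, because all chromosomes share the same libraries.

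The sum of these differences was 431 peaks. Chromosomes 20, 24 and 23 contributed 95, 64 and 43 of them, and the 34 of chromosome 19 and 33 of chromosome 25 came next. No single chromosome set the direction, since the ratio was 0.793 without chromosome 20. The larger input depth of *primpol* moved with genotype on every chromosome alike, and its part in the ratio was examined by scaling. When the *primpol* list was reduced to the input depth of wild type, the ratio was 0.471 on the microchromosomes and 0.696 on chromosomes 1 to 15. The microchromosome ratio was thus the lower one on either scale.

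Peaks were sparse on the microchromosomes in both genotypes. Over a span of 90.3 Mb, taken up to the last peak of either list because chromosome lengths were not used here, there were 23.3 wild type and 18.5 *primpol* peaks per Mb. Chromosomes 11 to 15, the next in size, had 26.6 and 28.7 peaks per Mb, and chromosomes 1 to 10 had 46.2 and 53.8. Peaks covered 2.35% of the microchromosome span in wild type and 1.93% in *primpol*. The corresponding values on chromosomes 1 to 15 were 5.82 and 7.13%, so the order of the genotypes was again reversed in the lists as deposited.

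Density varied among the microchromosomes. It ran in wild type from 17.1 peaks per Mb on chromosome 27 to 34.2 on chromosome 20, among chromosomes with at least 25 peaks in each list. In *primpol* it ran from 10.1 on chromosome 25 to 27.4 on chromosome 20. Chromosome 33, with a span of only 1.65 Mb, was the second densest in both lists apart from the very short chromosomes, at 32.8 and 22.5. Chromosome 28 held 27.0 and 20.7. Single chromosomes from 1 to 15 ranged from 24.3 to 62.4 in wild type and from 25.4 to 68.0 in *primpol*. Of the microchromosomes with at least 25 peaks in each list, 19, 20, 24, 28 and 33 lay within that range in wild type. In *primpol* chromosome 20 alone did. The density of chromosome 25 thus went from 21.5 in wild type to the lowest value of the *primpol* list.

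The median gap between neighbouring peaks was longer than over chromosomes 1 to 15. It was 19.8 kb in wild type (interquartile range 5.46 to 52.2) and 23.5 kb in *primpol* (6.50 to 65.7). The medians on chromosomes 1 to 15 were 11.0 and 8.94 kb, and on chromosomes 11 to 15, the next in size, 17.6 and 14.6 kb. In wild type chromosome 14 alone had a median of 19.9 kb, no shorter than that of the microchromosomes, whereas in *primpol* no chromosome from 1 to 15 reached theirs. *Primpol* peaks were therefore farther apart than wild type peaks on microchromosomes and closer together on chromosomes 1 to 15, where the *primpol* median was the shorter one on all 15. It was the longer one on 11 of the 13 microchromosomes with at least 25 peaks in each list.

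The increase in spacing was concentrated in a few chromosomes. On chromosome 25 the median gap was 22.1 kb in wild type and 69.8 kb in *primpol*, on chromosome 23 it was 24.6 and 59.7 kb, and on chromosome 24 it was 17.8 and 31.6 kb. On chromosome 20 the medians were 14.5 and 14.6 kb, although *primpol* had fewer peaks there. The 2 exceptions to the longer *primpol* gap were chromosome 22 (25.8 and 22.7 kb) and chromosome 17 (24.6 and 24.5 kb). Gaps of over 100 kb made up 222 of 2088 in wild type and 259 of 1658 in *primpol*. Gaps of under 1 kb made up 126 and 96.

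The longest stretch without a peak lay on chromosome 27 in both lists. In wild type it ran over chr27:266107-1014385 (748 kb), and in *primpol* over chr27:266091-1033062 (767 kb), so its left edge was set by overlapping peaks. The *primpol* stretch held 1 wild type peak, close to its right edge. Next came chr22:2917809-3660382 in wild type (743 kb, with 2 *primpol* peaks inside) and chr25:276971-813036 (536 kb, with none). In *primpol* the next were chr23:4393040-5096458 (703 kb) and chr17:2779082-3459111 (680 kb). These last gaps held 5 and 4 wild type peaks. The stretch on chromosome 23 was thus empty in *primpol* only.

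Peaks on microchromosomes were narrower than elsewhere. Wild type peaks had a median width of 677.5 bp (interquartile range 375 to 1258) and *primpol* peaks of 697 bp (401 to 1274), compared with 811 and 855 bp on chromosomes 1 to 15. Both microchromosome medians lay below the lowest median of any single chromosome from 1 to 15, which was 718 bp for wild type and 723 bp for *primpol*. Some single microchromosomes with at least 25 peaks in each list lay within the range of chromosomes 1 to 15. In wild type these were chromosomes 19, 20 and 33 (720.5, 738 and 728 bp), and in *primpol* chromosomes 20 and 24 (787 and 728.5 bp). Peaks of at least 2000 bp were 12.2% of wild type and 12.4% of *primpol* microchromosome peaks, compared with 19.4 and 21.3% on chromosomes 1 to 15. Narrow peaks of under 500 bp made up 36.4 and 34.6%.

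Among the 13 microchromosomes with at least 25 peaks in each list, width was lowest on chromosome 25, where the wild type median was 530 bp and that of *primpol* 480 bp. It was highest on chromosome 20, at 738 and 787 bp. The genotypes showed no common direction, as the *primpol* median was the larger one on 6 of these 13. The difference was largest on chromosome 33 (728 and 595 bp) and chromosome 28 (585 and 705.5 bp), which ran in opposite directions. A width of 5 kb or more was reached by 22 peaks in each list.

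The widest wild type peak was chr20:6480977-6490632, at 9656 bp. It had a single *primpol* partner of 8819 bp, chr20:6481524-6490342, which ranked 3 in width in its own list. The next widest wild type peaks were chr22:2726704-2733819 (7116 bp) and chr20:11150677-11157706 (7030 bp), each with 1 *primpol* partner of similar width (6846 and 6733 bp). By contrast, the pair of widest *primpol* peaks, chr18:7530120-7541320 (11201 bp) and chr26:3844876-3853918 (9043 bp), each overlapped 3 separate wild type peaks. At these sites a single *primpol* region thus joined regions that were called apart in wild type. The reverse was no rarer over all microchromosomes. There 60 wild type peaks overlapped 2 *primpol* peaks and 1 overlapped 3, against 44 and 4 *primpol* peaks that overlapped 2 and 3 wild type peaks.

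**Figure D2:**
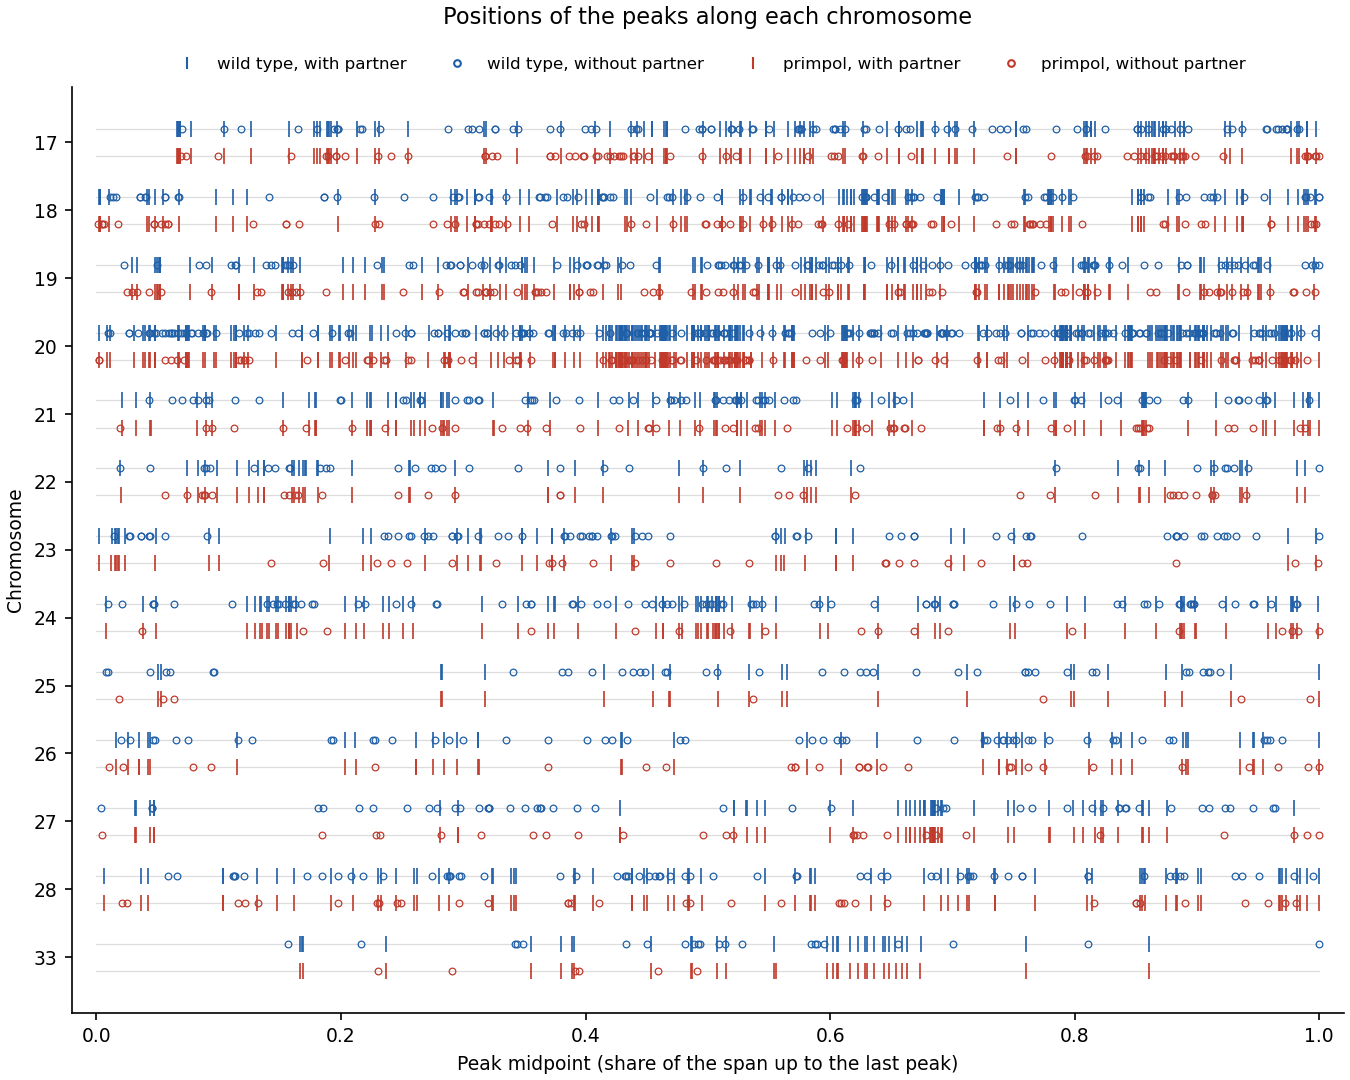
Midpoints of all peaks as a share of the span of each chromosome (0 at the first base, 1 at the last peak of either list) for the 13 microchromosomes with at least 25 peaks in each list, wild type in blue above *primpol* in red. Bars mark peaks with an overlapping peak in the other list and open circles those without, and circles outnumber bars in wild type on chromosomes 23, 24, 25 and 26.

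Over the microchromosomes together, peaks were fewest near the start of the span. The span runs from the first base to the last peak, so a peak-free start is counted in it and a peak-free end is not. With each span divided into 5 equal segments, the microchromosomes held 15.5, 16.5, 24.4, 21.1 and 22.5% of wild type peaks in order. For *primpol* the shares were 15.2, 16.4, 24.6, 21.0 and 22.7%. The distribution along the chromosome was thus alike in both lists, although their numbers were not. The last segment was poorer on chromosomes 1 to 15, with 18.5 and 18.4% of peaks. On chromosomes 11 to 15 it held 13.5 and 12.0%, and the first segment 15.6 and 14.5%, close to that of the microchromosomes.

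Single chromosomes departed from this in their own ways. Chromosome 22 held 31 of 83 wild type and 27 of 77 *primpol* peaks in its first segment, and only 4 and 5 in segment 4. Chromosome 27 was richest in segment 4, with 30 of 96 and 34 of 78 peaks. On chromosome 33 segments 3 and 4 together held 38 of 54 wild type and 25 of 37 *primpol* peaks. Chromosome 20 carried its largest group in segment 3, 135 wild type and 137 *primpol* peaks. This was the one segment of chromosome 20 in which *primpol* had no fewer peaks. Elsewhere on it the numbers fell from 73 to 49, from 62 to 46, from 86 to 53 and from 124 to 100.

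In windows of 100 kb, chromosome 20 held the 3 densest. The window chr20:6000001-6100000 contained 15 wild type and 16 *primpol* peaks, chr20:11100001-11200000 contained 15 and 11, and chr20:6500001-6600000 contained 13 and 12. Of 912 windows over all microchromosomes, 406 had more wild type than *primpol* peaks, 187 had more *primpol* peaks, 175 had equal numbers above 0 and 144 had none. The excess of wild type was therefore spread over many windows rather than a few: no window differed by more than 5 peaks. Windows with only wild type peaks numbered 113, and those with only *primpol* peaks 49. On chromosome 24, 41 of 63 windows had more wild type peaks and 4 had more *primpol* peaks, and on chromosome 25 these were 18 and 1 of 29.

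The local background was estimated as lambda, the tag level that the peak caller expected from input around each peak. Lambda was divided by its median over the whole list, which removes the difference in depth between the genotypes. Relative lambda over the microchromosome peaks had a median of 1.07 in wild type (interquartile range 0.916 to 1.33) and 1.05 in *primpol* (0.859 to 1.32). Chromosomes 1 to 15 had medians of 1.01 and 1.02. The microchromosomes as a set were thus close to the rest, but differed widely from one another.

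Of the 13 microchromosomes with at least 25 peaks in each list, some lay outside the range of the medians of chromosomes 1 to 15. That range reached from 0.918 to 1.38 for wild type peaks and from 0.934 to 1.43 for *primpol* peaks, with chromosome 2 highest in both. On chromosome 20 the median was 1.51 in wild type and 1.53 in *primpol*, above the range in both. On chromosome 24 it was 1.40 and 1.32, of which the wild type value alone lay above it. On chromosome 33 it was 0.660 and 0.690, and on chromosome 27 it was 0.843 and 0.823, below the range in both. Chromosomes 23 (0.916), 26 (0.918) and 28 (0.932) lay below it in *primpol* only. Without chromosomes 20 and 24, which were left out after their values were seen, the median over the microchromosomes was 0.992 in wild type and 0.954 in *primpol*. Chromosomes 20 and 33 were at the ends of the order in both genotypes.

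**Figure D3:**
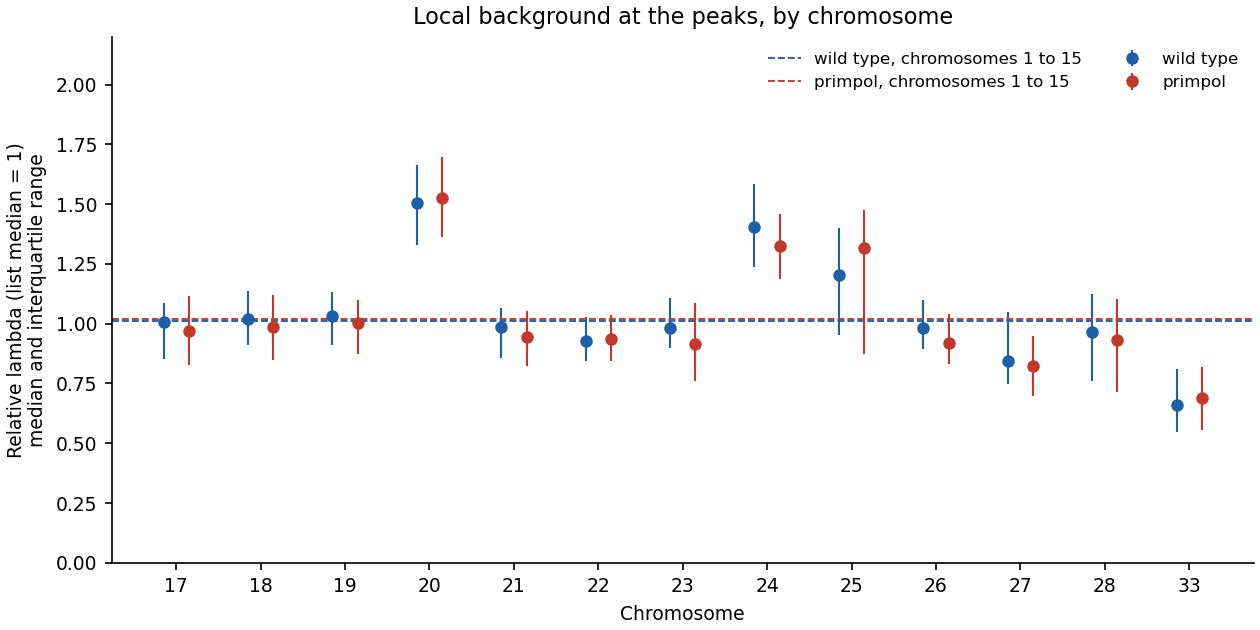
Relative lambda, the local background divided by the median of its list, at the peaks of the 13 microchromosomes with at least 25 peaks in each list (points show medians, bars interquartile ranges, dashed lines the medians over chromosomes 1 to 15). Chromosome 20 is highest in both genotypes (1.51 and 1.53) and chromosome 33 lowest (0.660 and 0.690).

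Chromosome 25 combined a high median with a wide spread. Its relative lambda was 1.21 in wild type (interquartile range 0.952 to 1.40) and 1.32 in *primpol* (0.872 to 1.48). The genotypes differed little on any of these chromosomes, and the *primpol* median was the lower one on 9 of 13. The lowest possible lambda, the average over the genome, was met within 1% by 20 wild type and 9 *primpol* microchromosome peaks (0.951 and 0.538%). The input around these peaks was no deeper than that average. The shares were 1.40 and 1.61% over the whole lists, and 0.0834 and 0.0557% on chromosomes 1 to 15. Of the 20 and 9 peaks, 8 and 5 lay on chromosome 28 (6.02 and 4.90% of its peaks) and 4 and 1 on chromosome 33 (7.41 and 2.70%).

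Among the 13 microchromosomes with at least 25 peaks in each list, those with the highest median percentile of height were 20, 24 and 25, which also had the highest relative lambda. The median height of microchromosome peaks was 14.8 in wild type (interquartile range 13.0 to 17.3) and 18.2 in *primpol* (15.8 to 21.4), each on its own input scale. As percentiles of their whole lists, the medians were 63.0 and 56.4. Most of this excess over 50 came from chromosome 20, whose medians were the 90.6 and 90.0 percentiles. Without it the values were 52.2 and 45.5. Of 402 wild type microchromosome peaks in the highest 10% of their list, 249 were on chromosome 20 and 65 on chromosome 24. In *primpol* these were 192 and 25 of 255.

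Fold enrichment, which sets height against lambda, gave another order. Its median was 2.53 in wild type and 2.27 in *primpol*, at percentiles of 45.9 and 44.1. Chromosome 20 had the lowest median percentile of fold enrichment of the microchromosomes with at least 25 peaks in each list (15.4 and 11.5) and chromosome 33 the highest (90.7 and 92.8). The peaks of chromosome 20 were thus among the tallest and least enriched of both lists. Those of chromosome 33 were among the lowest and most enriched. These orders are not findings separate from that of lambda, because the measures are tied by definition and a peak on a high background must be taller to pass the cutoff. Chromosome 2, highest in relative lambda of chromosomes 1 to 15, had wild type median percentiles of 84.55 for height and 22.04 for fold enrichment. A stronger hybrid signal on chromosome 33 can therefore not be read from its rank. Chromosome 33 had median heights of 12.2 and 14.6.

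A peak was said to have a partner when a peak of the other list overlapped it by at least 1 bp. Of the wild type microchromosome peaks, 1091 had a partner (51.9%, 95% Wilson interval 49.7 to 54.0) and 1013 had none. The share without a partner was 48.1%, against 30.3% of all wild type peaks. In *primpol* 1101 peaks had a partner (65.8%, 63.5 to 68.0) and 572 had none, which is 34.2%, against 42.2% of all *primpol* peaks. Wild type peaks thus lacked a partner more often on the microchromosomes than over the whole list, and *primpol* peaks less often. For chromosomes 1 to 15 the order in the lists as deposited was the opposite, with a partner for 70.4% of wild type peaks (69.9 to 70.8) and 58.8% of *primpol* peaks (58.3 to 59.3). That order turned when *primpol* was reduced to the input depth of wild type, with shares of 53.3 and 71.6%, while the microchromosome shares became 36.6 and 75.8%.

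The numbers of peaks with a partner were nearly equal in both lists, so the share in each moved inversely with its number of peaks. This follows from the overlap itself, as 1030 wild type peaks had a single partner, 60 had 2 and 1 had 3. In *primpol* 1053 had a single partner, 44 had 2 and 4 had 3. The difference in number between genotypes on microchromosomes therefore appears again in the peaks called in 1 list alone, 1013 in wild type against 572 in *primpol*. A peak that was not called in the other list may still have signal there below the cutoff.

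**Figure D4:**
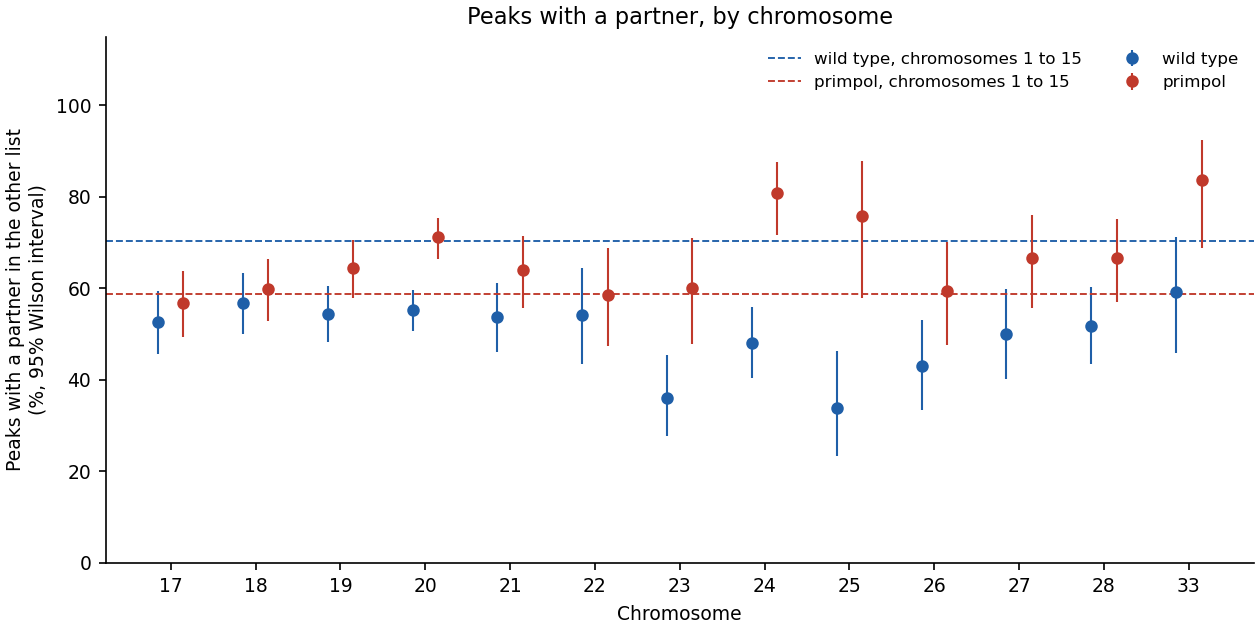
Share of peaks with an overlapping peak in the other list (percent, bars show 95% Wilson intervals) on the 13 microchromosomes with at least 25 peaks in each list, with dashed lines at the shares over chromosomes 1 to 15 (70.4% in wild type and 58.8% in *primpol*). The *primpol* share is above that of wild type on every chromosome shown, most clearly on 20, 23, 24 and 25.

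The *primpol* share was the higher one on all 15 microchromosomes with both, and on 2 of the chromosomes 1 to 15. The Wilson intervals of the genotypes were apart on 4. These were chromosome 20 (55.2% of wild type and 71.2% of *primpol* peaks with a partner), chromosome 23 (36.1 and 60.0%), chromosome 24 (48.1 and 80.9%) and chromosome 25 (33.9 and 75.9%). On chromosome 33 the shares were 59.3 and 83.8%. The genotypes were closest on chromosome 18, at 56.8 and 59.9%, chromosome 17, at 52.6 and 56.7%, and chromosome 22, at 54.2 and 58.4%. In wild type the share lay below the lowest of any chromosome from 1 to 15, 58.7% on chromosome 14, on 13 of these 15.

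The wider a peak was, the more often it had a partner. In wild type the share with a partner rose from 29.0% of microchromosome peaks under 500 bp to 49.2% at 500 to 999 bp, 72.2% at 1000 to 1999 bp and 93.8% at 2000 bp or more. In *primpol* the same classes gave 48.5, 63.2, 79.0 and 98.1%. The difference from chromosomes 1 to 15 was present at each width. In every width class the wild type share was below that of chromosomes 1 to 15 (48.6, 62.8, 84.9 and 98.3%), and the *primpol* share was above it (33.6, 46.0, 71.7 and 95.3%). Only the *primpol* class of 2000 bp or more had an interval, 95.2 to 99.3%, that reached that of chromosomes 1 to 15, 94.9 to 95.7%.

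**Figure D5:**
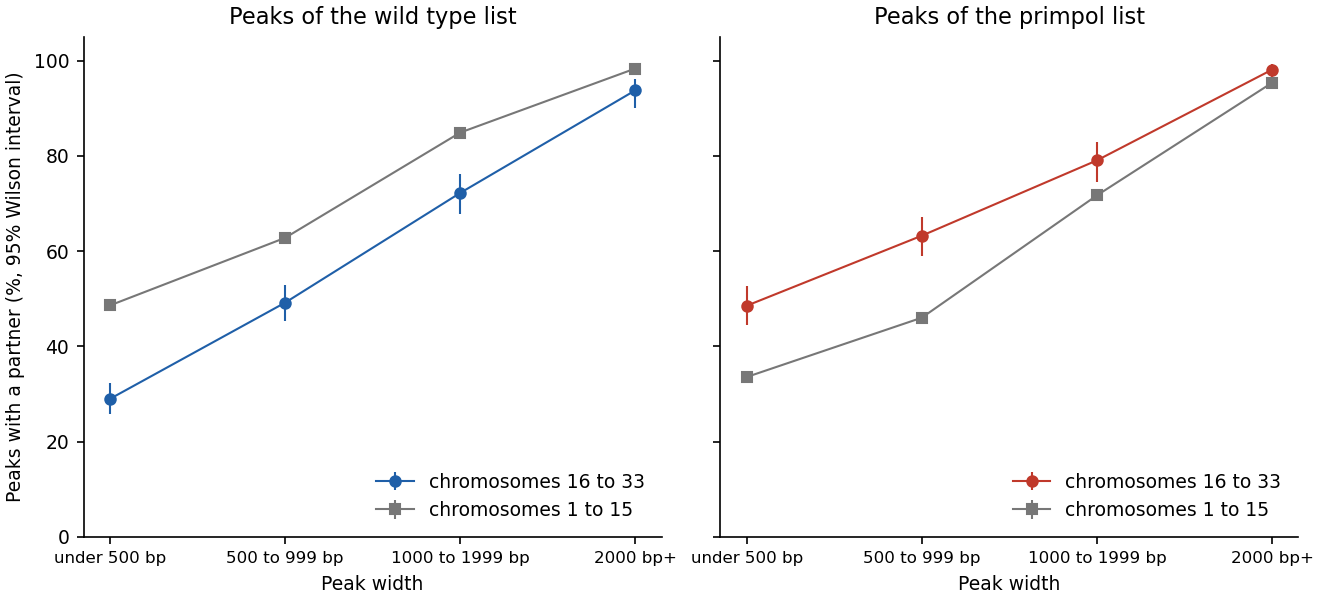
Share of peaks with an overlapping peak in the other list (percent, 95% Wilson intervals) by peak width, for the wild type list (left) and the *primpol* list (right), on chromosomes 16 to 33 (coloured circles) and 1 to 15 (grey squares). At every width the microchromosomes lie below chromosomes 1 to 15 in wild type, starting at 29.0 against 48.6%, and above them in *primpol*, starting at 48.5 against 33.6%.

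By height the difference was present in wild type at each level and in *primpol* at the lower ones. With the whole list divided into 4 equal classes from lowest to highest, the wild type share on microchromosomes was 39.1, 42.7, 49.7 and 64.4%, compared with 54.6, 68.7, 74.7 and 81.9% on chromosomes 1 to 15. In *primpol* it was 48.4, 60.6, 70.7 and 78.3%, compared with 32.5, 51.9, 67.3 and 77.5%. In the 2 highest classes the *primpol* intervals, with lower bounds of 66.0 and 74.7%, included the values of chromosomes 1 to 15. The wild type intervals did not in any class.

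Peaks without a partner were narrower and had lower scores than those with one. Their median width was 468 bp for wild type and 480.5 bp for *primpol*, against 998 and 870 bp for peaks with a partner. Their median −log10 q-value was 1.44 and 1.40, against 1.72 and 1.67. Of the 1013 wild type peaks, 121 were in the highest 10% of their list by height and 16 were 2000 bp or wider. Of the 572 *primpol* peaks, 34 and 4 were. On chromosomes 1 to 15 these were 414 and 120 of 11016 wild type peaks and 623 and 428 of 17760 *primpol* peaks without a partner. The share in the highest 10% by height was thus larger on the microchromosomes in both lists. Relative lambda was lower without a partner than with one, at 1.05 and 1.10 in wild type and 0.986 and 1.09 in *primpol*.

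Many of these peaks were far from any peak of the other genotype. The median distance to the nearest peak of the other list was 14.0 kb in wild type (interquartile range 3.53 to 36.0) and 9.23 kb in *primpol* (1.69 to 25.1). These medians were 4.30 and 5.56 kb on chromosomes 1 to 15, where both lists were denser. A distance of over 10 kb was found for 586 wild type and 276 *primpol* microchromosome peaks (57.85 and 48.25%), against 30.18 and 33.19% on chromosomes 1 to 15. One of over 100 kb was found for 41 and 13, and on chromosomes 1 to 15 for 74 of 11016 and 53 of 17760. A peak of the other list lay within 1 kb for 97 and 94 (9.58 and 16.4%). On chromosomes 1 to 15 these shares were 23.1 and 17.7%, so the *primpol* shares were similar. The wild type peak on chromosome 30 had no *primpol* peak on its chromosome and has no distance.

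Some peaks without a partner lay next to each other. Runs of at least 5 neighbouring peaks without a partner numbered 31 in wild type, with 204 peaks, and 7 in *primpol*, with 36. Runs become more frequent as the share without a partner rises, and that share was 48.15% in wild type and 34.19% in *primpol*. Whether the runs exceeded what these shares alone would give was not tested. The longest run had 16 wild type peaks over chr23:4390725-5474943, a stretch of 1084 kb with 2 *primpol* peaks inside. It includes the long *primpol* gap on that chromosome. The next had 13 wild type peaks over chr27:1665667-2284816 (619 kb, 4 *primpol* peaks inside) and 10 over chr23:2207254-2429825 (223 kb, 1 *primpol* peak inside). The longest *primpol* run had 6 peaks, over chr18:8316532-8468265 (152 kb). Among the 16 peaks of the longest run the highest −log10 q-value was 2.85 and the median height 14.3.

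The highest wild type peak without a partner was chr20:13695915-13696230, 316 bp wide with a height of 27.4 and a −log10 q-value of 5.41. The nearest *primpol* peak was 19.0 kb away. The next were chr24:56556-57793 (height 25.4, nearest *primpol* peak at 9.04 kb), chr25:1265867-1266314 (24.9, 47.1 kb), chr24:5230317-5230598 (24.2, 39.5 kb) and chr20:11051124-11051985 (23.8, 14.6 kb). All 5 were among the highest peaks of the whole wild type list, at percentiles from 99.4 to 99.8.

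The highest *primpol* peaks without a partner were nearer to wild type peaks. The first was chr20:6553947-6554178, with a height of 30.8, and a wild type peak lay 0.992 kb away. The next, chr20:7354195-7354712 (28.8) and chr20:7206367-7206740 (27.2), had wild type peaks at 0.925 and 0.304 kb. For chr22:2696326-2697539 (26.8) and chr20:10359065-10359277 (26.7) the distances were 2.68 and 18.4 kb. The peak on chromosome 22 was at the same time the highest *primpol* peak of its chromosome. At chr20:7206367-7206740 the fold enrichment, 1.82, was at the 0.0743 percentile of its list, and relative lambda there was 2.06.

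Peaks that matched 1 to 1 between the lists formed 933 pairs. Within them the ratio of *primpol* to wild type height had a median of 1.22, compared with 1.32 over 20241 pairs on chromosomes 1 to 15. Divided by the number of input tags the ratios became 0.930 and 1.00, and with fold enrichment they were 0.885 and 0.898. On each scale the microchromosome ratio was the lower one. No spike-in scale is in these heights, so the absolute direction of the change in signal cannot be read from them. On the microchromosomes with at least 25 peaks in each list the median ratio of heights ran from 1.15 on chromosome 23 to 1.26 on chromosome 17, and on chromosomes 1 to 15 from 1.24 to 1.33.

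Ranks and widths within pairs moved the same way. The height percentile fell from wild type to *primpol* in 584 of 933 pairs (62.6%), against 37.5% of the pairs on chromosomes 1 to 15. The median change was -3.01 percentile points, against 4.12. It was the *primpol* peak that was wider in 43.0% of microchromosome pairs and in 60.0% of the others. The median ratio of widths was below 1 on 12 of 13 microchromosomes and on 0 of the chromosomes 1 to 15. Relative lambda also fell in these pairs, with a median ratio of 0.971 against 1.04, and its part in the change of rank was not tested. The Spearman correlation of heights across pairs was 0.817 over all microchromosomes and 0.462 to 0.807 within single ones with at least 25 peaks in each list, where the differences in level between chromosomes do not enter.

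Single pairs changed rank by more than this in both directions. The percentile of height rose by 68.1 points at chr20:5922957-5923375, from a height of 11.7 in wild type to 21.3 in *primpol*. It rose by 60.7 points at chr24:2314090-2315623 (12.3 to 21.4) and by 59.2 points at chr19:328963-329376 (12.1 to 20.5). At the first and second of these, relative lambda rose as well, by factors of 1.61 and 1.56, and the percentile of fold enrichment fell. At the site on chromosome 19 fold enrichment rose from 2.45 to 3.10. The wild type and *primpol* widths were 419 and 527 bp on chromosome 20, 1534 and 205 bp on chromosome 24, and 414 and 212 bp on chromosome 19. Height is a mean over each peak, so on chromosome 24 it covers unlike stretches in the lists. The percentile of height fell by 81.3 points at chr25:815457-815726 (18.8 to 14.1), by 81.0 points at chr26:84062-85022 (18.6 to 14.0) and by 78.7 points at chr21:3024448-3024912 (19.4 to 14.7). Fold enrichment was lower in *primpol* at all 3. It was 2.78 and 2.66 on chromosome 25, 2.68 and 2.30 on chromosome 26, and 3.65 and 2.21 on chromosome 21. Its percentile fell on chromosomes 26 (67.7 to 49.5) and 21 (98.1 to 32.2) but rose on chromosome 25 (77.6 to 88.6). Relative lambda was also lower in *primpol* at all 3, with ratios of 0.520 on chromosome 25, 0.596 on chromosome 26 and 0.908 on chromosome 21. Widths in these pairs were 270 and 406 bp on chromosome 25, 961 and 423 bp on chromosome 26, and 465 and 539 bp on chromosome 21. The positions given are those of wild type.

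The highest microchromosome peaks were shared by both genotypes. Coordinates are those of Galgal5, and the genes and sequences at these sites were not analysed here. The highest in both lists was on chromosome 26, at chr26:5311281-5312272 in wild type and chr26:5311269-5312292 in *primpol*. Its height was 31.3 in wild type, with a fold enrichment of 5.03, and 46.6 in *primpol*, with 5.04. It ranked 25 and 17 by height in the whole lists. In wild type it was followed by chr18:8607437-8608367, with a height of 30.8, whose *primpol* partner at chr18:8607490-8608391 had a height of 36.7.

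Of the next wild type peaks, chr20:5377427-5378425 (29.6), chr20:13442754-13443295 (29.0) and chr16:7055-7380 (29.0), each had a *primpol* partner. The corresponding heights in *primpol* were 27.9, 30.6 and 28.0. These peaks stood on a high local background, with relative lambda between 1.82 and 2.36 in wild type, and had fold enrichments of 3.17, 3.06 and 2.45. In *primpol* the next highest were chr28:1926932-1928089 (45.0) and chr21:6823952-6824800 (39.7). Their wild type partners had heights of 28.0 and 21.6. The peak on chromosome 21 had a fold enrichment of 6.21 in wild type and 6.35 in *primpol*, on a relative lambda of 0.553 and 0.772. The fifth, chr20:6016450-6022796 (35.5), was broad, with 6347 bp, as was its wild type partner of 6375 bp and height 27.0.

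The highest peak of a chromosome was the same site in both lists on chromosomes 16, 18, 21, 23, 26, 28 and 32, and differed on the others. On chromosome 23 it was chr23:1814283-1814549 in wild type and chr23:1814311-1814566 in *primpol* (heights 24.1 and 32.6), narrow peaks of 267 and 256 bp. On chromosome 32 it was chr32:52699-54618 and chr32:52653-54529 (15.9 and 17.6). On other chromosomes the lists chose different sites. On chromosome 25 they were chr25:2305678-2306047 (28.3) in wild type and chr25:1197294-1199151 (35.2) in *primpol*, on chromosome 24 chr24:872935-873209 (27.7) and chr24:993957-996683 (31.5), and on chromosome 33 chr33:277918-278537 (19.5) and chr33:913835-914172 (24.0). Each of these had a partner in the other list.

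The same was found on chromosome 17, with chr17:9445338-9447424 (20.7) in wild type and chr17:5743733-5744314 (27.6) in *primpol*, and on chromosome 19, with chr19:5978588-5981620 (21.0) and chr19:6517612-6519077 (26.0). On chromosome 22 the wild type site was chr22:3981004-3983748 (19.5), which overlapped 2 *primpol* peaks. On chromosome 27 the lists had chr27:5486363-5489009 (20.1) in wild type and chr27:5601356-5601968 (23.0) in *primpol*. The latter had no partner and its −log10 q-value was 1.32, and the nearest wild type peak was 112 kb away. Aside from chromosome 27, then, only the *primpol* peak of chromosome 22 and the single wild type peak of chromosome 30 were the highest of a chromosome without a partner.

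The smallest chromosomes held too few peaks for a comparison and are given by their positions. Chromosome 16 had 10 wild type and 6 *primpol* peaks. A cluster at its start was shared: wild type peaks at chr16:7055-7380, chr16:9785-10113, chr16:10977-12252 and chr16:13445-14114 had heights of 29.0, 12.9, 16.9 and 24.6. Here *primpol* had peaks at chr16:6955-7375, chr16:9989-12230 and chr16:13475-14104, with heights of 28.0, 24.2 and 21.4, the second of which joined a pair of wild type peaks. The only other shared site was chr16:203500-204196 (13.8), with chr16:203364-204228 (15.2) in *primpol*. The last wild type peak, chr16:601133-602020, lay 356 kb from the nearest *primpol* peak.

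On chromosome 32 the 5 wild type peaks lay within chr32:34182-72315. Of these, 4 had a partner among the 3 *primpol* peaks, which all had one. The *primpol* peak chr32:69238-70154 (height 15.4) joined the wild type peaks chr32:68931-69314 (11.6) and chr32:70077-70421 (11.0). The wild type peak without a partner, chr32:34182-34993 (13.5), was 17.7 kb from the nearest *primpol* peak. On chromosome 30 the single wild type peak was chr30:13811-15429, 1619 bp wide with a height of 14.2 and a −log10 q-value of 2.07. A difference of 1 peak is within counting error.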

How the data were processed

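DRIP-seq reads were trimmed by the authors with Trim Galore and aligned with bowtie2 to Galgal5 and the *Drosophila* genome, and uniquely matching reads were kept. MACS2 2.1.1.20160309 was run by the authors in broad mode, once per genotype. Cutoffs per the file headers were q-values of 0.05 (strong) and 0.1 (weak), with fragments of 183 (wild type) and 187 bp (*primpol*) and with the larger library of each DRIP and input pair scaled to the smaller. How the DRIP replicates entered each list is not given in the sources used here. The deposited signal is the pileup averaged over each peak, its fold enrichment, also deposited, is the ratio to lambda with 1 added to each, and the deposited −log10 p-value score and −log10 q-value are averages over the peak.

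Lambda was recovered as (height + 1) / fold enrichment − 1. Shares have 95% Wilson intervals, and ratios and medians 95% counting intervals. To bring *primpol* to the input depth of wild type, heights and lambda were multiplied by 0.763, −log10 p-values were shifted under a Poisson model, and peaks below the lowest wild type −log10 p-value, 2.65, were dropped. Functions were tested on simulated data. Python 3.11.15, numpy 2.4.6, pandas 2.3.3, scipy 1.17.1 and matplotlib 3.10.9 were used. Named peaks were the 5 highest, 3 widest and 5 highest without a partner of each list, the highest of each chromosome, and the 3 pairs whose percentile rose and the 3 whose percentile fell most. The 3 longest gaps of each list and 3 densest windows were also named. The longest runs and all peaks of chromosomes 16, 30 and 32 were added after their values were seen. The chromosomes, measures and named peaks were chosen with earlier results of these data known.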

Additional observations from a re-analysis of the deposited data

How the results depend on the processing

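The ratio of peak number stayed below 1 and the *primpol* share with a partner stayed above that of wild type under every alternative tried. Of 68 alternative values, 29 stayed within the interval of the main value, and 39 moved outside it. Among the latter, *primpol* relative lambda fell below 1 without chromosome 20, and the *primpol* height percentile fell below 50 without it and for −log10 q-value. With fold enrichment both percentiles were below 50. No paired analysis was possible because each list carries no replicate number, which also prevents leaving a replicate out. Intervals cover counting error only. Most peaks lie close to the threshold, so the depth of the inputs limits which are called. Leaving out chromosome 20 was chosen after the data were seen. Alternatives that need sequence or genes were not run, and no lambda was computed for merged peaks.

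Values that moved are given for wild type and then *primpol*. Keeping −log10 q-values of 2 or more (517 and 391 peaks), the ratio of shares was 0.530, median widths 873 and 951 bp, median gaps 73.2 and 107 kb, shares with a partner 40.8 and 53.7%, and wild type relative lambda 1.11. With the 20000 highest −log10 q-values (1124 and 674 peaks), the ratios of number and of share were both 0.600, widths 841 and 938.5 bp, gaps 36.3 and 58.4 kb, and the wild type share with a partner 40.0%. With *primpol* scaled to the wild type input depth (991 *primpol* peaks), the number ratio was 0.471, shares with a partner 36.6 and 75.8%, and the *primpol* width and gap 846 bp and 39.7 kb. By construction, scaling only removes *primpol* peaks. Merging peaks within 1 kb gave widths of 723 and 735 bp and gaps of 22.3 and 26.5 kb. Overlap of at least 50% of both peaks gave partner shares of 27.9 and 35.1%, and a partner within 1 kb gave 56.5 and 71.4%. Relative to chromosomes 1 to 15, *primpol* lambda was 1.03. Percentiles of fold enrichment were 45.9 and 44.1 and of −log10 q-value 55.3 and 49.7. Without chromosome 20, gaps were 21.8 and 28.3 kb, relative lambda 1.02 and 0.975, and height percentiles 52.2 and 45.5.

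On chromosomes 1 to 15 the order of partner shares was not stable: scaling gave 53.3 and 71.6%, the reverse of the 70.4 and 58.8% as deposited. Their number ratio ran from 0.696 with scaling to 1.48 with −log10 q-values of 2 or more, and was 1.00 with the 20000 highest.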

Other observations

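The highest peak of a chromosome was also its last peak on 3 of the 13 microchromosomes with at least 25 peaks in each list, in wild type and in *primpol*. These were chromosomes 21, 26 and 27, and on chromosomes 21 and 26 it was the same site in both lists. On chromosomes 1 to 15 this was found on 0 in either list, and the highest peak was the first peak on 0 of either set. The pattern was noticed in the data, chromosome ends were not known here, and no test was made.

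The windows of 100 kb that differed most were scattered. A difference of 5 peaks in favour of wild type was found on chromosomes 17 (7 and 2), 20 (5 and 0), 21 (6 and 1), 23 (6 and 1) and 28 (7 and 2). A difference of 5 in favour of *primpol* was found once, at chr22:4100001-4200000, with 0 wild type and 5 *primpol* peaks.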
